A study of Mus musculus with 6 samples.

Results

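The 10 genes described here encode receptors for extracellular ATP, ADP, UDP and adenosine and the enzymes that convert these molecules at the cell surface. They were P2rx4, P2rx7, P2ry1, P2ry6, Entpd1, Entpd2, Nt5e, Adora1, Adora2b and Adora3, chosen by symbol from the 23366 genes of a table of cortical RNA, and the choice left out P2ry12, P2ry13 and Adora2a. All 10 were in the table and had a mean of at least 0.5 FPKM (fragment counts scaled to transcript length and library size) over the 6 mice, as did 14385 genes in all. Adora3 reached that mean only through the depleted mice, since its mean in control mice was 0.45 FPKM.

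ATP leaves cells through channels, vesicles and damaged membranes, and acts on P2X receptors, which are ATP-gated cation channels, and on P2Y receptors, which are G protein-coupled. Ectonucleotidases of the ENTPD family cut ATP and ADP to AMP, and CD73 turns AMP into adenosine, the ligand of the adenosine receptors. In the brain, microglia carry several of these receptors and CD39, and use them to sense injured neurons, while neurons carry mostly the A1 receptor.

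The study sequenced poly(A) RNA from frontal cortex of C57BL/6 mice, with 1 library per mouse. The 3 depleted mice, named A4, A5 and A6, carried CX3CR1-CreERT2+/- and iDTR+/-, a diphtheria toxin receptor behind a floxed stop, and were taken at day 10 after depletion with diphtheria toxin. The 3 control mice, A1, A2 and A3, were littermates that carried CX3CR1-CreERT2+/- without iDTR, so CreERT2 was present in every mouse. Both genotypes received tamoxifen. The sources used here do not state whether the controls received the toxin, and they call the mice adult and matched for age and sex without giving either. The CX3CR1 promoter is also active in other macrophages and in monocytes, but the study left a gap after tamoxifen in which blood monocytes were to be renewed from cells without recombination, and in this model microglia return to the brain after depletion. Nothing names separate litters, batches or days, so p-values measure the spread between these mice.

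The libraries were unequal. The spacing of low FPKM values put the depth at about 14.5, 20.6 and 18.2 M fragments for A1, A2 and A3, and at about 13.7, 3.53 and 11.2 M for A4, A5 and A6. In A5, 68.7% of 198 low values lay within 0.1 of a whole number of fragments at this depth and 4.0% within 0.1 of the midpoint between 2 whole numbers, so a finer spacing, of a deeper library, is not seen there. The read coverage per sample that the study states is well above the estimate for A5, and this gap was not resolved. The fragment counts and counting intervals given below rest on the estimates. A4 stood apart in its interferon response: 12 type I interferon genes summed to 467.0 FPKM in A4, to 89.0 and 83.3 FPKM in A5 and A6, and to between 31.8 and 44.6 FPKM in control mice. Xist was at 4.74 FPKM in A3 and between 30.9 and 46.7 FPKM in the other mice, and 4 Y-linked genes summed to 5.56 FPKM in A4 and to at most 0.16 FPKM elsewhere. Markers of cortical neurons summed to between 1669 and 1948 FPKM, and the striatal marker Ppp1r1b was also present at 120.4 to 159.1 FPKM.

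Promoters are shown for 4 genes: P2rx4, P2rx7 and Adora2b, whose groups did not overlap, and Adora3, the member with the lowest level. P2rx7 (chromosome 5, 122643911 to 122691432, plus strand) and P2rx4 (chromosome 5, 122707544 to 122729738, plus strand) are neighbours on GRCm38, 16.1 kb apart and read in the same direction. Each line below gives 280 bases on the plus strand, which end 30 bases into the transcript, from RefSeq on GRCm38.p6, and 2 starts are listed for P2rx7. Capitals mark a match to GAGGAAGT, a site of the ETS family of the kind that PU.1 binds, read here on the minus strand.

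P2rx4, chr5:122707294-122707573: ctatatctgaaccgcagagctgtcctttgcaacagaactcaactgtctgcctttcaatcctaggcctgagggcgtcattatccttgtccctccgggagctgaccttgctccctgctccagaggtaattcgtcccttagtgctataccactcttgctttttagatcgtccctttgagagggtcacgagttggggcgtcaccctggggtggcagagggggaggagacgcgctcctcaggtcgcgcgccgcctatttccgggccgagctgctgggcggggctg

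P2rx7, first start, chr5:122643677-122643956: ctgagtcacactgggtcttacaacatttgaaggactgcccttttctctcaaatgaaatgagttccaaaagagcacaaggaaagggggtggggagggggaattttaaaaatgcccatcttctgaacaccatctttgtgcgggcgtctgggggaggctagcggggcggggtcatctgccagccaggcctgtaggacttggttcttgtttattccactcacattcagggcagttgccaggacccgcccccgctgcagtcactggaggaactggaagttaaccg

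P2rx7, second start, chr5:122650133-122650412: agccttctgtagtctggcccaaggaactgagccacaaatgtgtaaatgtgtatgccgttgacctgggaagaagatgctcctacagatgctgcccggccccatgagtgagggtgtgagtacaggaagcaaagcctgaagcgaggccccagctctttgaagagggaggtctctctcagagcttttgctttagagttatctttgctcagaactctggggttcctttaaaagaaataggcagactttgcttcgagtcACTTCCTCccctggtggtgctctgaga

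Adora2b, chr11:62248734-62249013: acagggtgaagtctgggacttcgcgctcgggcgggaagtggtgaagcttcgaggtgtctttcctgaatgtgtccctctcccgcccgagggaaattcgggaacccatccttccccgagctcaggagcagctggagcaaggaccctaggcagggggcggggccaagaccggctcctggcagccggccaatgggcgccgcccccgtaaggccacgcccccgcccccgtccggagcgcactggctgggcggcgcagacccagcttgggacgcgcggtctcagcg

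Adora3, chr3:105904171-105904450: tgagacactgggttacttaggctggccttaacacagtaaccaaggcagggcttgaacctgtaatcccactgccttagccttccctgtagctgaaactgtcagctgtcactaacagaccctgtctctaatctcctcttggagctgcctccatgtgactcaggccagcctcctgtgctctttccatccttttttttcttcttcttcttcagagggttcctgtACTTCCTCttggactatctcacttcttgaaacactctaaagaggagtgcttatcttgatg

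A window of 300 bases, 250 before and 50 from the start on, was searched on both strands for 9 of the 10 genes. The window of P2rx4 held 18 CG dinucleotides and that of Adora2b 27, against a median of 7 over 32544 windows of all genes. The first start of P2rx7 held 8, its second start 4, and Adora3 only 1. GAGGAAGT matched 30 to 23 bases before the start of Adora3 and 3 to 10 bases after the second start of P2rx7, and it was in 3.1% of all windows. None of the 9 genes held GAAANNGAAA, the core of the interferon-stimulated response element, or TTCNNNGAA, an interferon-gamma activated site. Nor did they hold the TATA box letters, TATAAA. These 3 motifs were in 3.4%, 8.3% and 13.6% of all windows. The matches are letters found in a window, and no binding was measured.

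The genes spanned a wide range of levels in control cortex, which can be compared because FPKM is per length. Adora1 was highest at 47.9 ± 2.94 FPKM (SD, n = 3), far above every other member. Entpd2 and P2rx4 followed at 5.90 ± 0.418 and 5.72 ± 0.491 FPKM (SD, n = 3 each), and their control values overlapped. Entpd1, Adora2b, Nt5e, P2rx7, P2ry1 and P2ry6 came next, from 2.41 down to 1.13 FPKM in their control means, and each overlapped with its neighbour in that order. Adora3 was lowest, and its 3 control values lay under those of P2ry6.

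**Figure D1:**
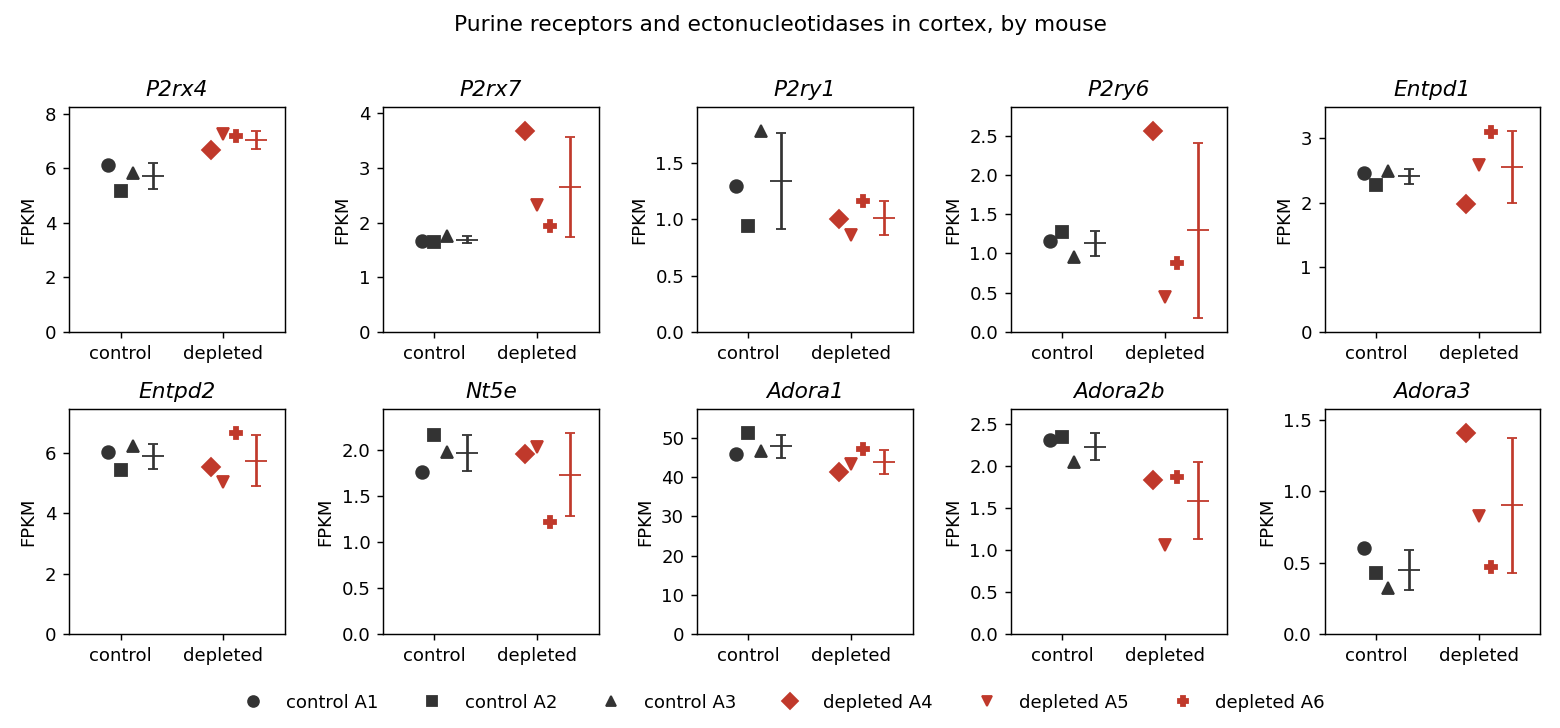
FPKM of the 10 genes in each mouse on axes that start at 0, with control mice in dark grey and depleted mice in red; the bars beside the points give mean ± SD of 3 mice. Every depleted mouse lay above the controls for P2rx4 and P2rx7 and below them for Adora2b, and A4 was the high point of P2rx7, P2ry6 and Adora3.

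No member passed an adjusted p-value of 0.1 in limma, the threshold used here, and neither did most genes: 4 of 14385 genes tested passed it, which is 0.0278%. At an unadjusted p under 0.05, 1 of the 10 members (P2rx4) and 10.5% of all genes passed. The groups did not overlap for 3 of the 10 members, against 17.6% of all genes, with 2 members above control (8.21% of all genes) and 1 below (9.38%). The median log2 fold change of the 10 was -0.018, and that of all genes tested was -0.0085. With 10 genes, these shares say nothing particular about the members. Because the samples were whole tissue, fewer cells of a type and less RNA per cell cannot be told apart in any of these values. All log2 fold changes below are differences in log2(FPKM + 1), depleted minus control, and for genes of low FPKM they come out smaller than the ratio of the means.

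The ATP-gated channels P2rx4 and P2rx7 were the members whose depleted mice were all higher. P2rx4, a channel of neurons and microglia that microglia increase after nerve injury, read 6.14, 5.18 and 5.84 FPKM in controls A1, A2 and A3, against 6.68, 7.28 and 7.20 FPKM in the depleted mice A4, A5 and A6. Its groups did not overlap, and the 3 depleted mice were close to each other. The means were 5.72 ± 0.491 and 7.05 ± 0.326 FPKM (SD, n = 3 each), a ratio of 1.23. On the log2 scale the difference was 0.26 (standard error 0.107, 95% interval 0.019 to 0.507), with an adjusted p of 0.451 in limma. It stayed between 0.20 and 0.31 with any 1 mouse left out. A4, with the strongest interferon response, was the lowest of the depleted mice here.

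P2rx7, a channel that opens at high ATP and drives interleukin-1 release from microglia and macrophages, read 1.66, 1.65 and 1.76 FPKM in controls A1, A2 and A3, against 3.68, 2.32 and 1.94 FPKM in the depleted mice A4, A5 and A6. The control mice were nearly identical, and the depleted mice were spread from just above them to a value far above. Depending on the transcript, 15.5 to 107.3 fragments stood behind the value of A6 at the estimated depth. For A5 it was 5.8 to 40.4, and for A3, the highest control, 22.8 to 158.2. No counting interval was computed for P2rx7, so the small gap between A6 and A3 was not set against counting error. Its means were 1.69 ± 0.061 and 2.65 ± 0.915 FPKM (SD, n = 3 each), a ratio of 1.57. The log2 fold change of 0.41 was the largest of the members on this scale (standard error 0.185, 95% interval -0.012 to 0.833), with an adjusted p of 0.484 in limma. Without A4 it was 0.22. Adora3 had the larger value with a pseudocount of 0.1 (0.79 against 0.57), after rescaling to TPM (0.56 against 0.50) and without A1 (0.44 against 0.40). Over the 6 mice, the genes most like P2rx7 among 14384 others were Rnf135, Ccar1 and Gm3002, with root-mean-square differences of 0.053, 0.055 and 0.069 from it on the log2 scale after subtracting each gene's control mean. Rnf135 encodes a ubiquitin ligase of RNA sensing. It read 1.69, 1.74 and 1.99 FPKM in the controls, against 3.86, 2.42 and 2.30 FPKM in depleted A4, A5 and A6. It was picked for its likeness to P2rx7 over these same mice, so its high value in A4 follows from the choice.

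The ratio of P2rx7 to P2rx4, chosen for a look after the values were seen, was 0.270, 0.319 and 0.301 in control mice. It was 0.551 in A4, and 0.319 and 0.269 in A5 and A6. Only A4 thus lay outside the control range by more than the third decimal.

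Of the P2Y receptors, neither member was apart between groups. P2ry1 (chromosome 3, 61002795 to 61008982), an ADP receptor of astrocytes and neurons, gave 1.29, 0.94 and 1.78 FPKM in the controls and then 1.00, 0.86 and 1.16 FPKM in depleted A4, A5 and A6. The control value of A3 was the high one, and without A3 the log2 fold change went from -0.21 (standard error 0.176, 95% interval -0.608 to 0.195, adjusted p of 0.697 in limma) to -0.074, while without A2 it was -0.33. An antisense gene, Gm37035, shares 21.4% of the 75-base windows of P2ry1's annotated transcripts, so some of its reads may come from the other strand.

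P2ry6 (chromosome 7, 100937630 to 100974649), a UDP receptor through which microglia start to engulf damaged neurons, was the most scattered of the 10 in depleted cortex. It measured 1.16, 1.27 and 0.96 FPKM in controls and 2.56, 0.44 and 0.88 FPKM in depleted A4, A5 and A6. A4 lay above every control mouse, while A5 and A6 lay below every one. About 68 fragments stood behind the value of A4, with a 95% exact Poisson interval of 1.98 to 3.23 FPKM. Only about 3 stood behind that of A5, with an interval of 0.091 to 1.29 FPKM that reaches past all 3 control values at the estimated depth. Such intervals cover counting error only. The log2 fold change was 0.0014 (standard error 0.303, 95% interval -0.691 to 0.694), with an adjusted p of 0.998 in limma, and leaving out 1 mouse moved it to between -0.37 (without A4) and 0.28 (without A5). The value of A6 rested on about 19 fragments, with an interval of 0.524 to 1.36 FPKM that also holds all 3 control values. The mean thus covers depleted values on both sides of the controls. At the estimated depth, the counts in A5 are too few to place that mouse, and those in A6 do not set it below the controls beyond counting error.

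**Figure D2:**
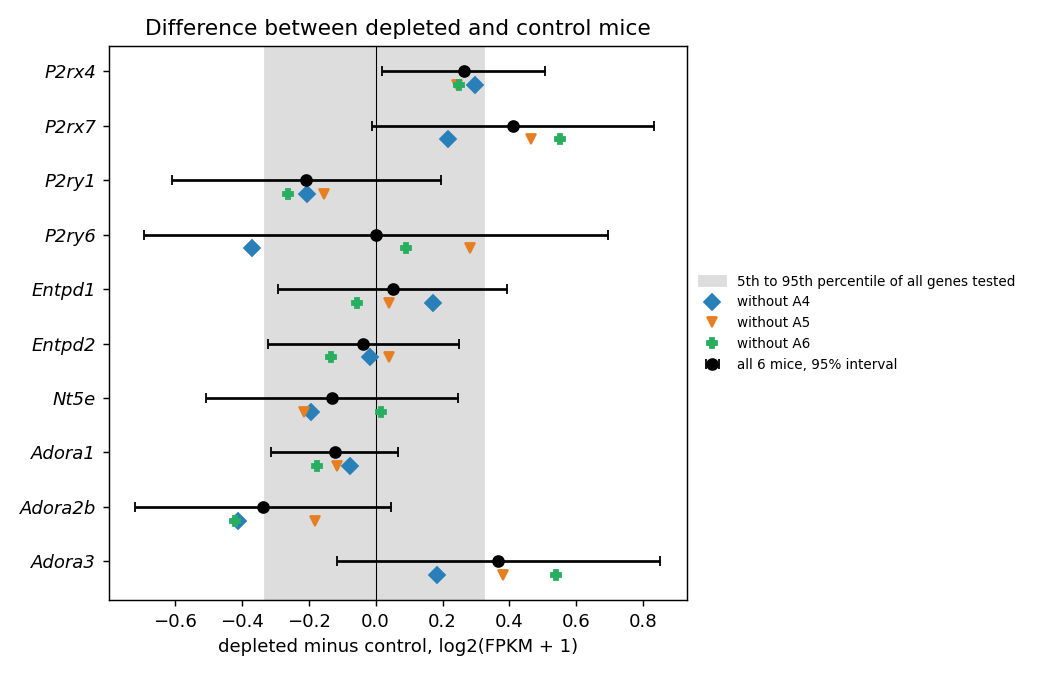
Log2 fold change of the 10 genes on log2(FPKM + 1), depleted minus control, with its 95% interval in limma (black) and the value without A4, A5 or A6 (coloured); the grey band spans the 5th to the 95th percentile of all genes tested. Of the 10 intervals, that of P2rx4 was the 1 that did not include 0, and P2ry6 moved most when a mouse was left out.

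For the 3 enzymes that degrade extracellular nucleotides, control and depleted mice overlapped. Entpd1 (chromosome 19, 40612366 to 40741602) encodes CD39, which cuts ATP and ADP to AMP on microglia and vessels. It read 2.46, 2.27 and 2.50 FPKM in the controls, against 1.99, 2.59 and 3.10 FPKM in depleted A4, A5 and A6. The depleted mice lay on both sides of the controls, with A4 lowest, and the log2 fold change was 0.051 (standard error 0.150, 95% interval -0.293 to 0.394, adjusted p of 0.926 in limma).

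Entpd2 (chromosome 2, 25395874 to 25401321) encodes an enzyme that prefers ATP and leaves ADP, known from astrocytes and neural progenitors. It gave 6.04, 5.43 and 6.23 FPKM in the controls and then 5.54, 5.04 and 6.67 FPKM in depleted A4, A5 and A6, and the groups overlapped almost wholly. The log2 fold change was -0.037 (standard error 0.125, 95% interval -0.322 to 0.248, adjusted p of 0.939 in limma). Its transcripts share 24.4% of their windows with the overlapping gene Npdc1, which was at 109.9 to 142.5 FPKM, so the level of Entpd2 depends on how reads were split between the pair.

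Nt5e (chromosome 9, 88327197 to 88372092) encodes CD73, which makes adenosine from AMP. It measured 1.76, 2.16 and 1.97 FPKM in controls and 1.95, 2.03 and 1.21 FPKM in depleted A4, A5 and A6. A6 alone was outside the control range. The log2 fold change was -0.13 (standard error 0.165, 95% interval -0.507 to 0.247, adjusted p of 0.807 in limma), and without A6 it was 0.015. The ratio of Nt5e to Entpd1, also chosen after the values were seen, was 0.715, 0.952 and 0.788 in control mice and 0.980, 0.784 and 0.390 in A4, A5 and A6, so A6 was the lowest mouse and A4 lay just above the control range.

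Of the adenosine receptors, Adora1 and Adora2b had negative log2 fold changes and Adora3 a positive one, and none passed the test. Adora1 (chromosome 1, 134199223 to 134235431), the inhibitory A1 receptor of cortical neurons, read 45.9, 51.3 and 46.7 FPKM in the controls, against 41.2, 43.5 and 47.2 FPKM in depleted A4, A5 and A6. The groups overlapped through A6, and the log2 fold change was -0.12 (standard error 0.082, 95% interval -0.311 to 0.066, adjusted p of 0.622 in limma). This was the narrowest interval of the 10. Adora1 made up 72.6% to 75.4% of the summed FPKM of the 4 adenosine receptors in control mice and 80.5%, 74.6% and 76.3% in A4, A5 and A6. Adora1 itself was at its lowest in A4, where Adora2a was at 6.70 FPKM against 12.33 to 14.41 FPKM in the other mice. The muscle gene Mybph shares 16.0% of the windows of Adora1, and it was at 0 to 0.13 FPKM.

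Adora2b (chromosome 11, 62248984 to 62266453) encodes an adenosine receptor that needs high adenosine. It gave 2.31, 2.35 and 2.05 FPKM in the controls and then 1.84, 1.06 and 1.87 FPKM in depleted A4, A5 and A6, so every depleted mouse lay below every control mouse. The means were 2.24 ± 0.163 and 1.59 ± 0.459 FPKM (SD, n = 3 each), a ratio of 0.711. Its log2 fold change was -0.34 (standard error 0.167, 95% interval -0.719 to 0.046), with an adjusted p of 0.517 in limma. The lowest value, that of A5, rested on about 7 fragments at the estimated depth. At that depth its counting interval of 0.432 to 2.22 FPKM reaches into the control range, and a deeper library would narrow it. The intervals of A4 (1.33 to 2.43 FPKM, about 46 fragments) and A6 (1.34 to 2.58 FPKM, about 39 fragments) hold all 3 control values. Neither A4 nor A6, taken singly, was thus set below the controls beyond counting error. Without A5 the log2 fold change was -0.18.

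Adora3 (chromosome 3, 105870858 to 105908926) encodes an inhibitory adenosine receptor known from microglia in the mouse brain. It measured 0.60, 0.43 and 0.32 FPKM in controls and 1.41, 0.83 and 0.47 FPKM in depleted A4, A5 and A6. A4 and A5 lay above all controls and A6 lay within them. The means were 0.450 ± 0.141 and 0.903 ± 0.474 FPKM (SD, n = 3 each), a ratio of 2.01. On log2(FPKM + 1) it differed by 0.37 (standard error 0.212, 95% interval -0.117 to 0.851), with an adjusted p of 0.571 in limma, and without A4 it was 0.18. The gene Tmigd3 shares 17.4% of its windows, and fewer than 10 fragments stood behind the value of A5.

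The members that microglia are known to carry were set against 17 microglia markers, whose summed FPKM was 301.5, 243.1 and 282.2 in control mice and 478.1, 297.9 and 369.6 in A4, A5 and A6. Of these markers 14 had a positive log2 fold change, 8 had all depleted mice above control and 1 (Fcrls) had all below, and none was at 0; Gpr34 turned from positive to negative after quantile normalization. P2rx4 came to 2.04%, 2.13% and 2.07% of that sum in control mice and to 1.40%, 2.44% and 1.95% in A4, A5 and A6. The control mice were almost equal, and the depleted mice lay on both sides of them. The difference in mean log2 ratio was -0.14 for P2rx4, 0.14 for P2rx7, -0.62 for P2ry6, -0.38 for Entpd1 and 0.46 for Adora3. Control and depleted mice overlapped for all 5 genes, and exact two-sided permutation tests gave p-values from 0.3 to 0.7 and adjusted values from 0.667 to 0.7, where the smallest p that 3 mice against 3 allow is 0.1. The marker chosen matters: with Csf1r alone, which was at 19.1 FPKM in control and 18.1 FPKM in depleted mice on average, the differences were 0.39 for P2rx4, 0.68 for P2rx7, -0.086 for P2ry6, 0.15 for Entpd1 and 1.00 for Adora3. So does the mouse left out: with all 17 markers, the difference for P2rx4 ran from -0.33 without A5 to 0.070 without A4, and without C1qa, C1qb and C1qc among the markers it was 0.036. Without A4 it was -0.039 for Entpd1 and -1.12 for P2ry6, and without A5 it was -0.57 for Entpd1, -0.20 for P2ry6 and 0.047 for P2rx7. The difference for P2rx7 ran up to 0.33 and that for Adora3 to 0.85, both without A6, and the latter fell to 0.22 without A3.

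**Figure D3:**
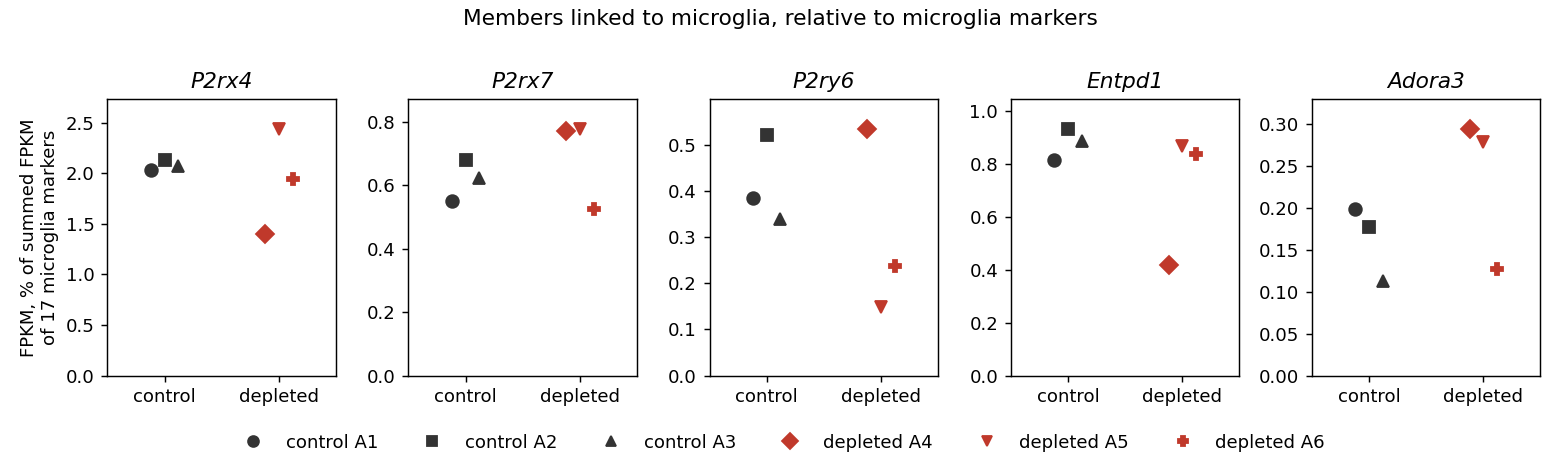
FPKM of 5 genes as a percentage of the summed FPKM of 17 microglia markers in each mouse, on axes that start at 0. Control and depleted mice overlapped for all 5 genes, and for P2rx4 and Entpd1 the mouse A4 was the lowest.

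Markers of other cell types also lay at different levels in the groups, and their part in the members' values was not tested. Of 9 monocyte and border macrophage markers, none had groups apart, and they summed to between 6.68 and 8.35 FPKM in control and between 4.75 and 9.89 FPKM in depleted mice; Ccr2 reached at most 0.24 FPKM. All 8 oligodendrocyte markers had a negative log2 fold change, with sums of 2976 to 3242 FPKM in control and 2606 to 2698 FPKM in depleted mice. All 5 precursor markers did too, with 83.3 to 98.0 against 57.8 to 76.8 FPKM. Choroid plexus markers summed to between 168.1 and 325.2 FPKM in control and between 45.6 and 71.1 FPKM in depleted mice, led by Ttr. Of 9 astrocyte markers, 3 had a positive log2 fold change, and the median of the list was -0.12. All depleted mice were above control for 2 of them and below for 2. The astrocyte gene Gfap was at 64.5 to 88.3 FPKM in the controls and at 300.3, 108.5 and 120.1 FPKM in depleted A4, A5 and A6.

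The wider pathway was described with lists for 6 roles, 49 genes in all, of which 37 were tested. In limma 0 passed the adjusted threshold (0.0278% of all genes tested), and 7 had an unadjusted p under 0.05 (10.5% of all genes tested). Of the 27 tested genes that were not members, 14 had a positive log2 fold change, 1 had all depleted mice above control (8.21% of all genes tested) and 6 had all below (9.38%), and the median was 0.0065. The 12 genes that were not tested, among them P2rx1, P2rx2, P2ry2 and P2ry4, stayed at or below 1.05 FPKM in each mouse.

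All 5 tested P2X receptors had a positive log2 fold change, also after TPM, quantile or median-of-ratios scaling, with a median of 0.26; of all 14385 genes tested, 6907 were positive. In 3 of them, P2rx4, P2rx6 and P2rx7, every depleted mouse was above control, against 8.21% of all genes. P2rx6, a subunit that seldom forms channels by itself, read 1.75, 1.99 and 1.51 FPKM in the controls, against 3.57, 2.04 and 2.71 FPKM in depleted A4, A5 and A6 (log2 fold change 0.44, adjusted p of 0.451 in limma). P2rx3, known from sensory neurons, was lowest of the 5 in its log2 fold change at 0.058, which turned to -0.13 without A6, -0.023 without A1 and -0.0084 without A3. The 7 listed P2X genes together summed to 10.98, 10.91 and 10.45 FPKM in control mice and to 15.69, 13.02 and 13.83 FPKM in depleted A4, A5 and A6. The sums of the groups did not overlap, but P2rx4, P2rx6 and P2rx7, already apart by themselves, made up most of the sum in each mouse. The sums are thus no separate result.

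P2ry12, the ADP receptor of resting microglia, gave 9.57, 10.24 and 8.50 FPKM in the controls and then 7.18, 6.45 and 7.91 FPKM in depleted A4, A5 and A6 (log2 fold change -0.35, adjusted p of 0.390 in limma). P2ry13, its relative on the same cells, had 0.18. The P2Y list had a median of 0.0014. Relative to P2ry6, P2ry12 was 8.25, 8.06 and 8.85 times as high in control mice, and 2.80, 14.7 and 8.99 times in A4, A5 and A6, a ratio also chosen after the values were seen. The value of A5 divides by the 0.44 FPKM of P2ry6, about 3 fragments, and is very uncertain.

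Adora2a, the adenosine receptor typical of striatal neurons, had the lowest log2 fold change of the 4 adenosine receptors at -0.39, with 6.70 FPKM in A4 against 12.3 to 14.4 FPKM in the other 5 mice. The adenosine receptor list had a median of -0.23. Of the 6 tested ectonucleotidases, Entpd3 was highest at 0.16 and Enpp1, which makes AMP and pyrophosphate from ATP, lowest at -0.27, with every depleted mouse of Enpp1 below control. The median of that list was -0.067.

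Among release channels and nucleoside transporters 5 of 6 tested genes had a negative log2 fold change. Slc29a1, the main equilibrative transporter of adenosine, measured 13.6, 13.7 and 15.4 FPKM in controls and 7.94, 11.45 and 11.96 FPKM in depleted A4, A5 and A6 (log2 fold change -0.43, adjusted p of 0.396 in limma). Panx2, a pannexin of neurons, was at 29.8, 31.0 and 32.2 FPKM against 16.6, 27.7 and 26.5 FPKM (log2 fold change -0.41, adjusted p of 0.459 in limma). In both genes A4 was the lowest mouse and the groups did not overlap. Panx1, the pannexin through which ATP is released, had 0.14.

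The enzymes of adenosine and AMP metabolism had a median of 0.015 over 11 tested genes. Ampd2, an AMP deaminase, was at 20.1, 17.4 and 17.6 FPKM in control and at 12.5, 14.9 and 14.6 FPKM in depleted mice (log2 fold change -0.37, adjusted p of 0.371 in limma), and Ak1, an adenylate kinase, was at 54.7 to 56.6 FPKM against 44.3 to 51.3 FPKM (log2 fold change -0.19, adjusted p of 0.451 in limma). Pnp, which breaks down inosine and guanosine, was highest at 0.19, through a value of 10.7 FPKM in A4.

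**Figure D4:**
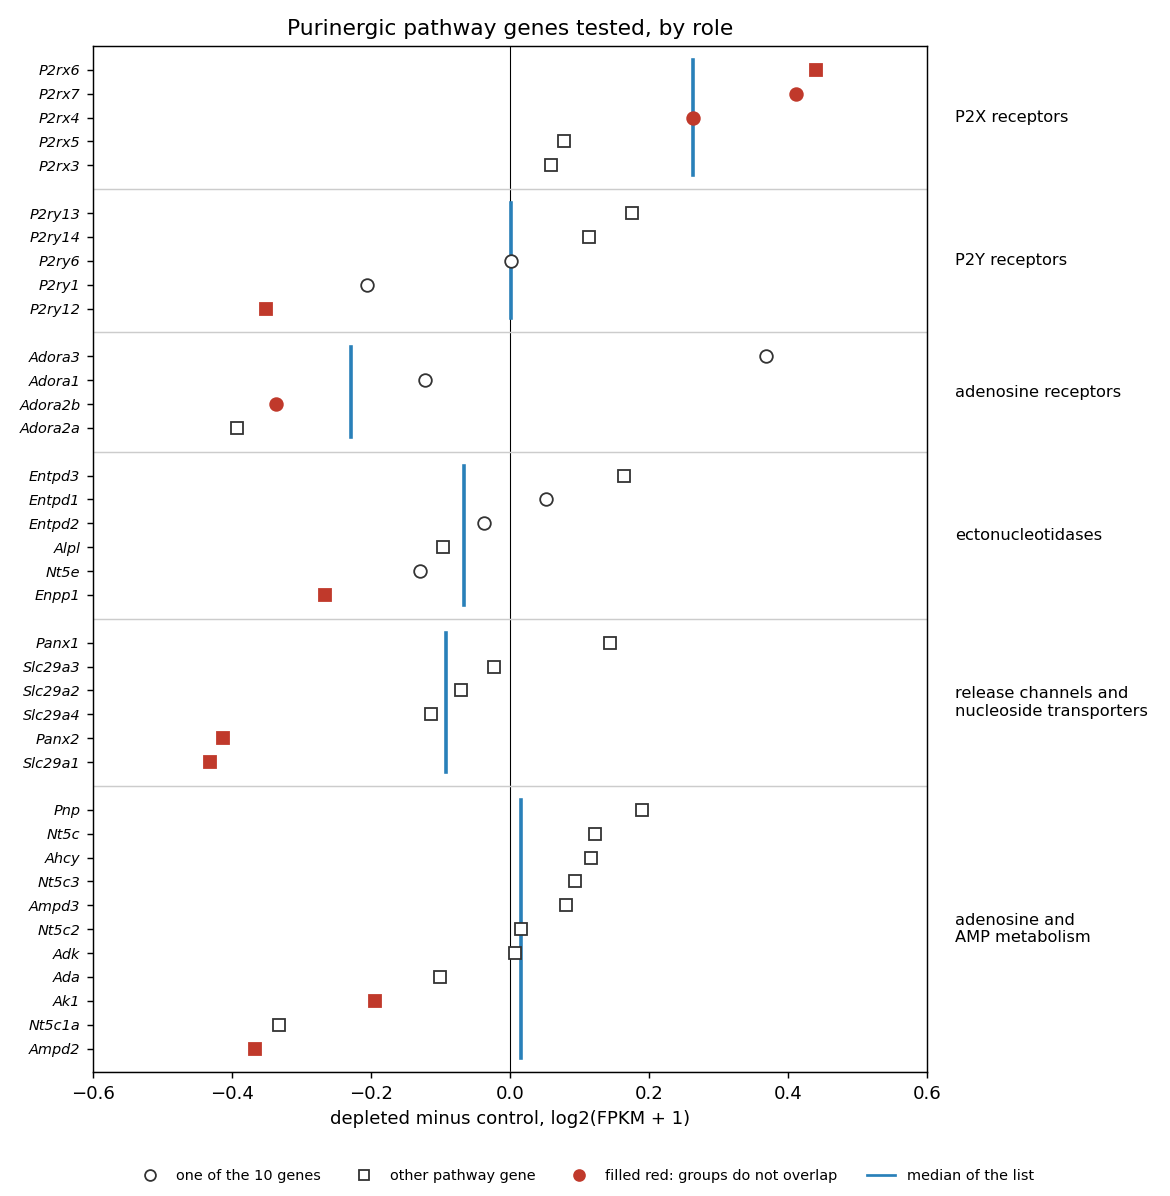
Log2 fold change on log2(FPKM + 1), depleted minus control, of the 37 tested genes of 6 purinergic roles; circles are the 10 genes of the report, squares the other genes, red marks genes whose groups do not overlap and blue lines are list medians. All 5 P2X genes lay right of 0, and the genes apart in the other lists all lay left of it.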

How the data were processed

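Poly(A) RNA libraries were sequenced with 75 bp paired-end reads, aligned with TopHat (mm9 per the labels) and quantified with RSEM by the authors; tool versions are not given in the sources used here. The authors deposited FPKM values, scaled between libraries with TMM factors and given to 2 decimals. Columns were assigned to mice by the names in the labels. The 10 members and all lists were chosen with earlier results of these data known.

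After a filter (mean over the 6 mice of 0.5 FPKM or more), log2(FPKM + 1) was fitted by group in limma 3.58.1 under R 4.3.3, using lmFit and eBayes with a variance trend and no covariate, with Benjamini-Hochberg adjustment over 14385 genes and a threshold of 0.1. On simulated data with 200 changed genes (1 on the log2 scale), 168 were called (84%), with 9.19% false calls, and 0 genes were called when none was changed. Ratios to marker sums were compared by exact permutation. The genes named beside the members were, per list, those with the highest and lowest log2 fold change and those whose groups did not overlap.

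Fragments per library were estimated from low values of 1813 genes with 1 transcript, since low values step by the worth of 1 fragment. The largest error on 3 simulated libraries was 0.227%. Those libraries were drawn as whole fragments at the same transcript lengths that the estimate uses, so this does not measure the error in the real libraries. As a check, low values were set against 0.5 of each estimate, where 33.9% to 53.3% fell within 0.1 of the midpoint between whole numbers, against 2.9% to 6.0% at the estimate itself. Positions and shared windows of 75 bases came from GENCODE M21 (GRCm38), and promoters from RefSeq (GRCm38.p6), which held no window for P2ry6; no coordinate was taken from mm9. Results were recomputed with each mouse left out, with a pseudocount of 0.1, with the filter off or raised to 1 FPKM, after TPM, quantile or median-of-ratios scaling, with robust eBayes or no variance trend, with array weights, at a threshold of 0.05, with other marker sets, and after a GC-content correction. Other steps ran in Python 3.11.15 with pandas 2.3.3, scipy 1.17.1 and matplotlib 3.10.9.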

Additional observations from a re-analysis of the deposited data

How the results depend on the processing

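No member passed the adjusted threshold under any of the alternatives run, GC-content correction (added after the data were seen) and leaving out single mice included, and of all genes 4 passed in the reported fit, 2 without the variance trend, 20 with array weights and 2 to 29 with 1 mouse left out (29 without A5, 22 without A4, 8 without A6 and 2 without A1). The log2 fold changes of P2rx4, P2rx7, P2ry1, Adora1, Adora2b and Adora3 kept their sign under each alternative that gave a value; Adora3 gave none at a minimum mean of 1 FPKM. Their sizes moved: Adora3 reached 0.787 with a pseudocount of 0.1 and 0.564 after TPM, P2ry1 -0.343 with that pseudocount, and Adora1 -0.0740 without A2 and -0.0780 without A4. P2ry6 turned to -0.126 with a pseudocount of 0.1, to -0.0555 after rescaling to TPM and to -0.207 with array weights, and ran from -0.370 (without A4) to 0.283 (without A5) with 1 mouse left out, passing -0.0573 without A3. Leaving out 1 mouse gave -0.0571 to 0.171 for Entpd1, -0.133 to 0.0395 for Entpd2 and -0.213 to 0.0150 for Nt5e, and the GC-content correction gave 0.0343 for Entpd2. The P2X median was 0.0771 with no filter, which adds P2rx1 and P2rx2, and 0.410 at a minimum mean of 1 FPKM, which leaves P2rx4, P2rx6 and P2rx7. The adenosine receptor median was -0.337 at that minimum, without Adora3, and ran from -0.297 to -0.0987 with 1 mouse left out, and that of release channels and transporters ran from -0.219 to -0.0565, with 0.00236 under no filter and -0.0234 after the GC-content correction. The median of ectonucleotidases turned to 0.00754 without A3 and 0.00321 without A4, that of P2Y receptors ran from -0.206 to 0.102 and that of adenosine and AMP metabolism from -0.0295 to 0.0433 with 1 mouse left out. With Csf1r alone as the marker, the ratio differences were 0.390 for P2rx4, 0.679 for P2rx7, -0.0856 for P2ry6, 0.150 for Entpd1 and 0.997 for Adora3. Except where named, the cause of these shifts was not tested. The number of members whose groups did not overlap was 3 under each scaling. No paired analysis was possible because the sources do not say which control and depleted mice shared a litter. At the estimated depth, few fragments stood behind several values of A5, among them P2ry6 (about 3 fragments), Adora2b (about 7), P2ry1 (6.7 to 11.8, depending on the transcript) and Adora3 (3.6 to 6.9).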
